A study of Mus musculus with 3 samples.

Results

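The CCAAT/enhancer binding protein (C/EBP) genes of the mouse were followed in adult ventricular cardiomyocytes (ACMs) that had been exposed in culture to oncostatin M (OSM) or interleukin-6 (IL-6). The 6 genes were taken by symbol from a table of 56748 genes, and they are Cebpa, Cebpb, Cebpd, Cebpe, Cebpg and Cebpz. Counts were recorded for 5 of them, and Cebpe was at 0 in every library. ACMs came from wild-type (WT) mice aged 8-10 weeks, without Langendorff perfusion, and were plated for 3-4 h with 5% serum. They were then kept in serum-free M199 medium with 0.1% BSA, 10 mM of the contraction inhibitor BDM, an insulin-transferrin-selenium supplement and lipids. Treatment lasted 16 h with vehicle, with 10 ng/mL of human IL-6 or with 10 ng/mL of mouse OSM. All 3 groups therefore shared genotype, age range, insulin, BDM and time in culture. RNA of each group was pooled and sequenced as 1 library, so there are no replicates and no test, and every interval given covers counting error only. The labels do not say how many animals or dishes went into a pool.

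C/EBP proteins are transcription factors of the basic leucine zipper (bZIP) class. A basic region contacts DNA and a zipper joins 2 subunits, so that members form dimers with each other and with relatives such as the ATF proteins. C/EBP alpha is best known from fat, liver and granulocyte differentiation, C/EBP epsilon from late granulocytes, and C/EBP beta and C/EBP delta from the acute-phase response, in which cytokines of the IL-6 family raise their expression through gp130, JAK kinases and STAT3. C/EBP gamma lacks a strong activation domain and works as a dimer partner, among others of ATF4 in the response to amino acid shortage. Cebpz carries the name for historical reasons, belongs to the CBF/MAK21 family of nucleolar proteins that help to assemble the large ribosomal subunit, and is also known as a partner of the m6A methyltransferase on chromatin. The authors' annotation gives 5 of the 6 genes the transcription factor family TF_bZIP, and Cebpz is not among them.

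The coding sequences show what the 5 bZIP genes share, and they matter here because reads of near-identical paralogs can be misassigned. The stretch shown is the most alike in-frame run of 60 bases near the end of the coding sequence, in the basic region, read from the GRCm39 genome at the exons of the canonical GENCODE M39 transcripts. Capitals mark the 29 bases that are the same in all 5 genes.
Cebpa (chr7:34819717-34819776, + strand): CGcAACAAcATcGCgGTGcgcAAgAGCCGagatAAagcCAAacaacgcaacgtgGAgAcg
Cebpb (chr2:167531632-167531691, + strand): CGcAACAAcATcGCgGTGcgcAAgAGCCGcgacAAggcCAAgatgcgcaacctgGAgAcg
Cebpd (chr16:15705786-15705845, + strand): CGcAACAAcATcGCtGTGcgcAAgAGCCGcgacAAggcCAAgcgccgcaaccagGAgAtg
Cebpe (chr14:54948146-54948205, - strand): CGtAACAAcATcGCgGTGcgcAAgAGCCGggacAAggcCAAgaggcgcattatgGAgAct
Cebpg (chr7:34749992-34750051, - strand): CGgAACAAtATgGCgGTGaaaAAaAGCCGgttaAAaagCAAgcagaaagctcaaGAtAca
Cebpb and Cebpd were the same at 54 of these 60 bases, Cebpa and Cebpb at 52, and Cebpg at only 33 to 35 against any other gene. Even so, the longest run shared exactly by any 2 canonical transcripts of the 6 genes was 29 bases, between Cebpa and Cebpb. Of all 50-base words in the canonical transcripts of Cebpa, Cebpb, Cebpd, Cebpe and Cebpg, 0 occurred in a transcript of a gene elsewhere in the genome. For Cebpz the share was 2.08%, all of it in Gm46613 and Gm50439.

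The promoters of Cebpa, Cebpb and Cebpg are shown, the only members for which a window was available. Cebpb was called higher with OSM and the other 2 were not. A link of the motifs to these calls was not tested. Each window holds the 250 bases before and the 50 after the RefSeq start, taken from a table built on GRCm38.p6. Positions are those of the single exact match of the window in GRCm39. Cebpd, Cebpe and Cebpz have no entry in the table. Capitals mark, on either strand, the motif TGACG of a cAMP response element, the CCAAT box and the TATA box motif TATAAA.
Cebpa (chr7:34818468-34818767, + strand): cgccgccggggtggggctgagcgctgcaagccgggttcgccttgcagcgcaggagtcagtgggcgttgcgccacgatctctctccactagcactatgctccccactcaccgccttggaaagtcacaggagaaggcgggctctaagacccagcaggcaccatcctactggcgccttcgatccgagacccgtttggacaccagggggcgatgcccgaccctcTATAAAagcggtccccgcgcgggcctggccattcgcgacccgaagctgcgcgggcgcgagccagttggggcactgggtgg
Cebpb (chr2:167530585-167530884, + strand): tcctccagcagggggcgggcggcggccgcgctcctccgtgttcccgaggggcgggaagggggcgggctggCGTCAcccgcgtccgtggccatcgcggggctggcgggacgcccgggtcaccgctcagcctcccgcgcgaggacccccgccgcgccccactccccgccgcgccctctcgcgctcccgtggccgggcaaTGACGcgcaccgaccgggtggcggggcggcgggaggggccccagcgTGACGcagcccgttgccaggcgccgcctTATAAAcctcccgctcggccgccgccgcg
Cebpg (chr7:34755942-34756241, - strand): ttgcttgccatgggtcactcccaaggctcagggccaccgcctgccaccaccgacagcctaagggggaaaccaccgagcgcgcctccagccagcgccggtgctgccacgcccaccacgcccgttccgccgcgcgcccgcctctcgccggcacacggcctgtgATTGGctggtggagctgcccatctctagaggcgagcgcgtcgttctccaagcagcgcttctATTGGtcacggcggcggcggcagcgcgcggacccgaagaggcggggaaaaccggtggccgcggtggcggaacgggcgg
Of the 3 windows, that of Cebpb alone held TGACG, with 3 matches that begin 180, 53 and 7 bases before the start. Among all 32851 windows, 20.8% held this motif. Its TATAAA lay 21 bases after the annotated start, whereas that of Cebpa lay 30 bases before the start, and 13.6% of windows held one. Cebpg had CCAAT on the opposite strand 89 and 28 bases before the start, a motif in 37.4% of windows. The GC box GGGCGG, not in capitals, was found 5 times in Cebpb, once in Cebpg and not in Cebpa, against 35.7% of windows with at least 1. The STAT motif TTCNNNGAA (8.30% of windows), the C/EBP motifs TTNNGCAA (10.8%) and TTGCGCAA (0.183%), the full element TGACGTCA (1.79%) and the amino acid response motif TGATGNAA (3.97%) were in none of the 3. TTGCGCAA is a form of TTNNGCAA, and TGACGTCA contains TGACG, so these matches overlap. A window without a match says only that these letters are not in it.

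The libraries held 24939980 to 30773001 counts, and 18443 to 18537 genes had at least 1. All 8 cardiomyocyte markers had counts in every library, at a sum of 31284 to 36748 CPM (counts scaled to the library total), so the cells matched their label. By the 2-fold rule given below, Ryr2 of these 8 was lower with OSM than with vehicle and with IL-6, and none was higher. The median log2 fold change of the 8 for OSM against vehicle was 0.27, and the lowest was -1.53. Fibroblast markers summed to 4.51 to 5.91 CPM, endothelial markers to 32.4 to 34.7 CPM and smooth muscle and pericyte markers to 36.2 to 43.7 CPM. Neutrophil, adipocyte, hepatocyte and lymphocyte markers had at most 6 counts in any library, summed over each list. The 6 macrophage markers summed to 23.2 CPM with vehicle, 23.8 with IL-6 and 53.4 with OSM, and this difference was carried by Cd68 (382, 448 and 1419 counts). Cd163 and C1qa were at 0 in every library, and Csf1r had 187, 166 and 209 counts. Even numbers were in excess among low counts. Of the genes with 1 to 10 counts, 62.4% to 65.2% had an even count, against 49.5% to 51.6% of those with 100 to 300 counts. Calls were therefore repeated with the intervals of counts divided by 2, here called halved counts.

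Levels were compared between genes as fpkm, the number of counts per kilobase of gene, scaled to the size of the library. In vehicle-treated ACMs the family was led by Cebpb at 34.4 fpkm (95% interval 32.5 to 36.3). Cebpg followed at 17.1 fpkm and Cebpz at 13.7 fpkm. Cebpa, with an interval of 1.86 to 2.59 fpkm, and Cebpd, at 0.644 fpkm (0.492 to 0.827), were far lower. Cebpe, at 0 counts, was below the 3 counts that a count of 0 allows, or 0.0956 fpkm with vehicle, 0.0892 with IL-6 and 0.0809 with OSM. All neighbours in this order had intervals that did not overlap, with vehicle as with IL-6. In the OSM library Cebpd had moved up next to Cebpz, at 11.5 fpkm (10.9 to 12.2) against 12.4 (11.9 to 13.1), and these intervals overlapped. Cebpa was then the lowest of the detected genes at 3.42 fpkm. Measured on canonical transcript lengths, Cebpz (14.2 fpkm) and Cebpd (11.5 fpkm) did not overlap in the OSM library, and the order was the same.

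**Figure D1:**
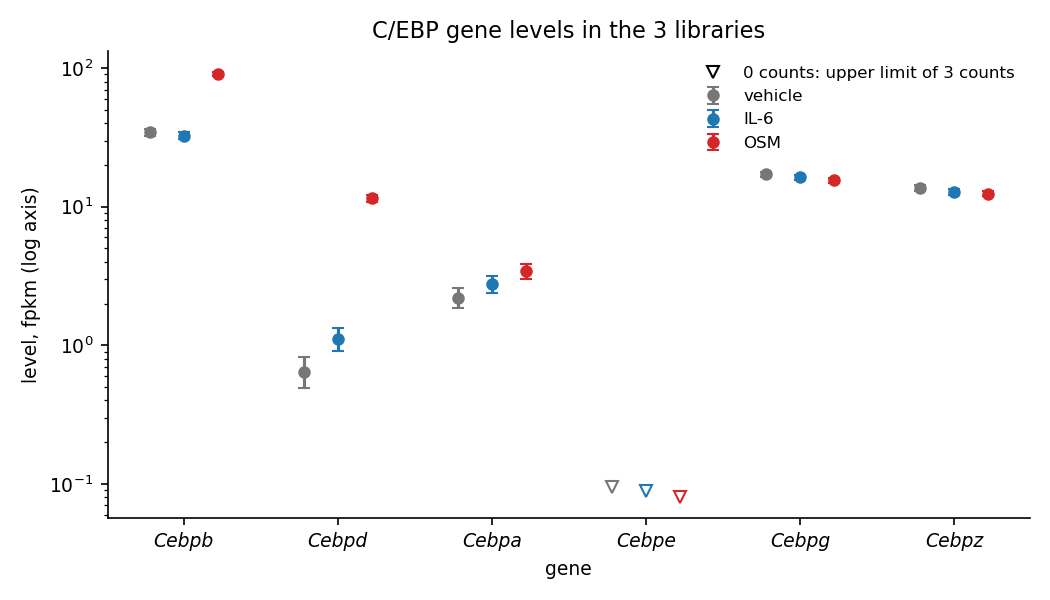
Level of each C/EBP gene in fpkm (log axis) in the vehicle, IL-6 and OSM libraries, 1 point per library with the 95% Poisson interval of its count, and open triangles for the upper limit of Cebpe. Cebpb lies at 91.0 fpkm with OSM against 34.4 with vehicle, Cebpd at 11.5 against 0.644, and the points of Cebpg and Cebpz lie close together.

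The makeup of the family changed with OSM. The fpkm of the 5 bZIP genes summed to 54.3 with vehicle, 52.8 with IL-6 and 121 with OSM. Cebpb made up 63.2%, 61.8% and 75.0% of these sums, so it was the main member in every library. The share of Cebpd was 1.18%, 2.09% and 9.48%, and that of Cebpg, the partner subunit, 31.5%, 30.9% and 12.7%. Cebpa held 4.06%, 5.23% and 2.81%.

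Comparison of OSM with vehicle asks which C/EBP genes differ after exposure to a cytokine that acts through the OSM receptor and gp130. Cebpd and Cebpb were higher with OSM, and the other 3 detected members were not called. A gene was called when the whole 95% interval of its fold change lay beyond 2-fold. Of 15537 genes compared, 3.74% were called higher and 5.43% lower. Among the 5 members compared, 2 were called higher and 0 lower. In a bulk library fewer cells of a type and less RNA per cell cannot be told apart.

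Cebpd, which in other tissues is an early response gene of the acute phase, had 61 counts with vehicle, 112 with IL-6 and 1288 with OSM. The OSM library stood far above the other two. The difference from vehicle was 17.9-fold, a log2 fold change of 4.16 (95% interval 3.79 to 4.55). By this fold Cebpd ranked 31 of 15537 genes, 3 of the 957 compared genes with a transcription factor family, and 1 of 45 TF_bZIP genes. Cebpb, the most abundant member, had 1307, 1329 and 4087 counts in the same order. The vehicle and IL-6 libraries were alike within counting error, and the OSM library was 2.64-fold above vehicle (log2 1.40, 1.31 to 1.49). Cebpb thus gained more fpkm than Cebpd, while Cebpd had the larger fold. Both calls held with intervals on halved counts, where the lower ends were 3.62 for Cebpd and 1.27 for Cebpb. With an assumed coefficient of variation of 0.2 or 0.4 between libraries, Cebpd was still called and Cebpb was not.

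Cebpa had 147 counts with vehicle, 197 with IL-6 and 269 with OSM. Between OSM and vehicle this was 0.63 on the log2 scale (0.33 to 0.93), an interval that lay above 0 but below 2-fold. Cebpg had 2436, 2481 and 2597 counts and a log2 fold change of -0.15 (-0.23 to -0.07). Cebpz had 1618, 1607 and 1732 counts and -0.14 (-0.24 to -0.04). For both, the OSM library was within 1.5-fold of vehicle over the whole interval.

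**Figure D2:**
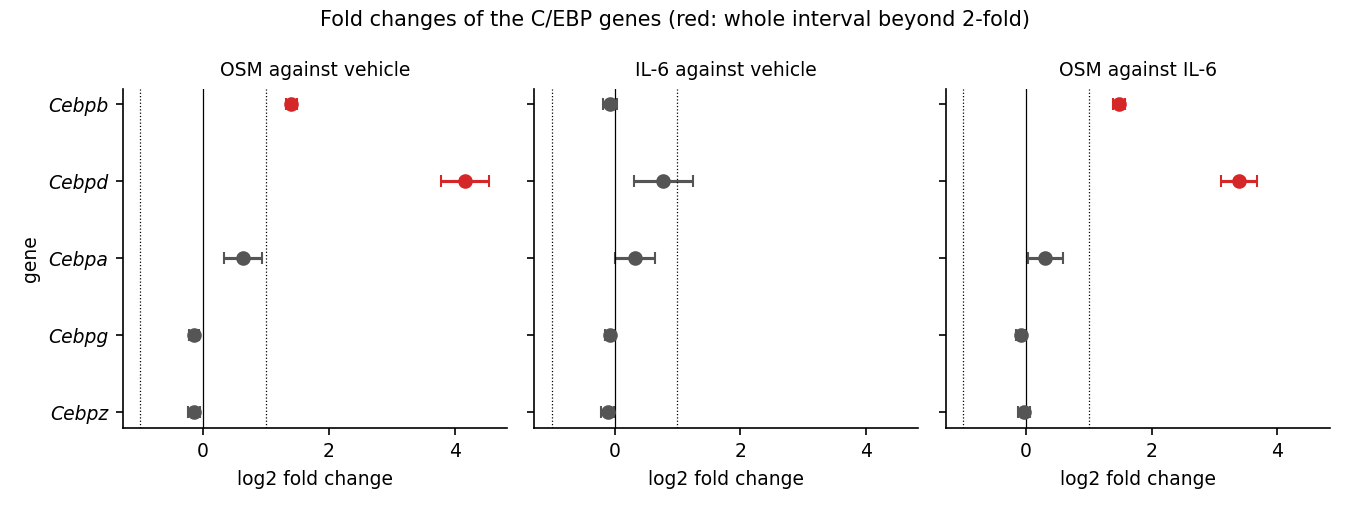
log2 fold change (x axis) of the 5 detected C/EBP genes in the 3 comparisons, with 95% counting intervals, a solid line at 0 and dotted lines at 2-fold. Cebpd at 4.16 and Cebpb at 1.40 lie beyond 2-fold for OSM against vehicle, and no gene does for IL-6 against vehicle.

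Ratios of 2 genes within a library do not depend on how libraries are scaled. They are not free of the trend of fold changes with gene length described below. The fpkm of Cebpd over that of Cebpb was 0.0187 with vehicle, 0.0338 with IL-6 and 0.127 with OSM, a change of 6.75-fold (5.18 to 8.79) between OSM and vehicle. Cebpb over Cebpg went from 2.01 to 5.88 between the same libraries, or 2.93-fold (2.70 to 3.19). Cebpa over Cebpg went from 0.129 to 0.221 (1.72-fold, 1.39 to 2.11). The ratio of Cebpz to Cebpg was 0.802 with vehicle and 0.805 with OSM, and the interval of its change, 0.920 to 1.10-fold, included 1. The detected members therefore spread over a range of changes, with Cebpd above Cebpb, Cebpb above Cebpa, and Cebpg and Cebpz together.

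**Figure D3:**
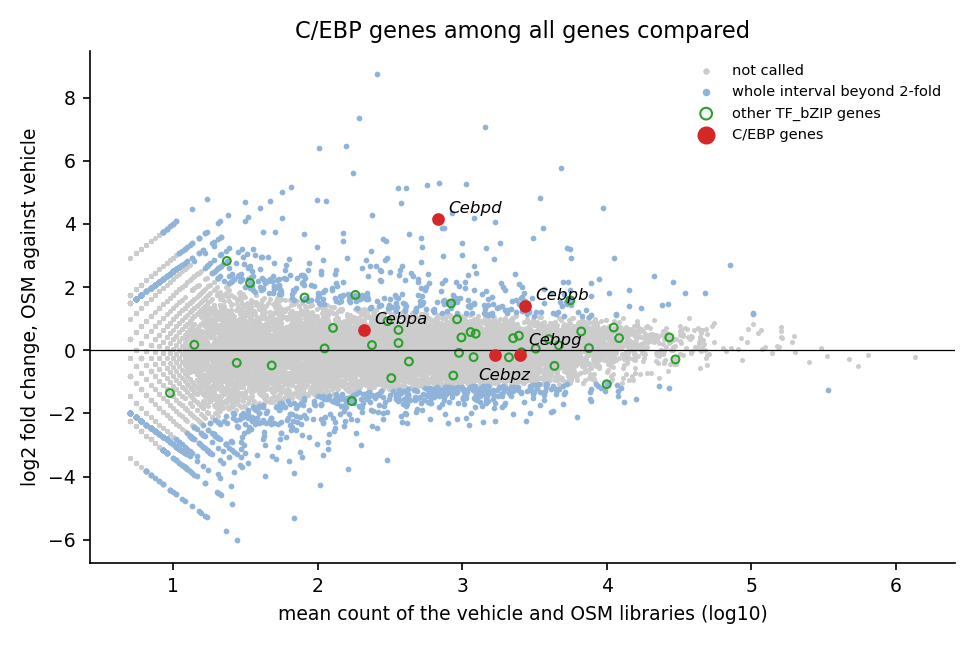
log2 fold change of OSM against vehicle (y axis) against the mean count of both libraries (log10) for the 15537 genes compared, where a library at 0 counts was set to 3. The C/EBP genes are red and named, other TF_bZIP genes are green rings, and Cebpd and Cebpb lie among the blue points, whose whole interval is beyond 2-fold.

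Gene length moved with the fold changes of OSM against vehicle. Over 12706 protein-coding genes the Spearman correlation of log2 fold change with gene length was -0.39, a description across genes of the same libraries. For IL-6 against vehicle it was -0.05. Cebpb is the shortest detected member at 1504 bases, and the running median over genes of similar length stood at a log2 fold change of 0.35 at that length. With the running median removed, Cebpb was at 1.06 and was no longer called, while Cebpd, at 3746 bases, was at 4.06 and still called. Cebpa came to 0.45, Cebpg to -0.06 and Cebpz to -0.10. The ratios between members given above were not corrected for length. At the 5621 bases of Cebpg the running median was -0.09, against 0.35 at the length of Cebpb. The part of gene length in the value of Cebpb was not tested. Against IL-6, Cebpb was called also with the running median removed (1.12).

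**Figure D4:**
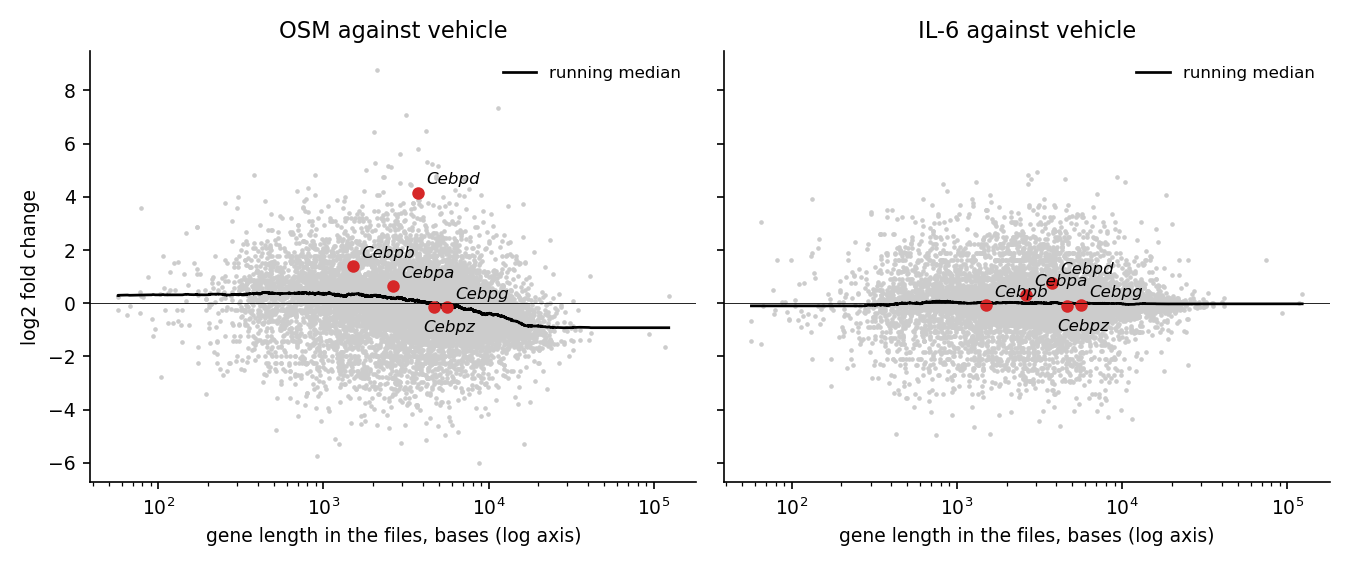
log2 fold change (y axis) against the gene length in the files (bases, log axis) for all genes compared, OSM against vehicle on the left and IL-6 against vehicle on the right, with the running median over gene length as a black line and C/EBP genes in red. The line falls from short to long genes on the left, passing 0.35 at the length of Cebpb, and stays near 0 on the right.

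The position of the genes sets how neighbours could affect their counts, since the counting was not stated to use strand. Cebpb (chr2:167530835-167532338 in GRCm39, + strand, 1 exon) overlaps the opposite-strand gene Peds1 over 908 bases, of which 312 are exonic in both and coding in Cebpb. Peds1 had 591, 718 and 750 counts, a log2 fold change of 0.10 for OSM against vehicle, with an interval that included 0. Cebpd (chr16:15705150-15708895, + strand, 1 exon in the canonical transcript) overlaps Spidr over 1808 bases, with 563 exonic in both and none of them coding in Cebpd. Spidr had 62, 100 and 78 counts, or 0.09 (-0.41 to 0.59) on the log2 scale with OSM against vehicle. Neither neighbour was called, and the counts of Spidr in the OSM library are small beside the 1288 of Cebpd. Cebpz (chr17:79226435-79244495, - strand) overlaps the opposite-strand gene Cebpzos. In GENCODE M39 they share 1670 exon bases, 29.6% of those of Cebpz, and 706 of them are coding in Cebpz. Cebpzos had 104, 98 and 216 counts and a log2 fold change of 0.81 (0.47 to 1.16), and was not called. Cebpa (chr7:34818718-34821353, + strand) overlaps Gm45091, with 3, 6 and 4 counts. Cebpg (chr7:34745847-34755998, - strand) overlaps Gm45095, with 6, 0 and 1 counts, Gm44836, with 2, 4 and 0, and Gm45094, with 0. Cebpe lies at chr14:54947817-54949631 on the - strand and has 2 exons.

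IL-6 was compared with vehicle to ask whether the same genes differ with a second cytokine of the family at the same dose and time. No member was called, against 1.77% of 15472 genes called higher and 1.74% lower. Cebpd had 112 counts against 61, a log2 fold change of 0.78 (0.31 to 1.25), so its interval lay above 0 and reached past 2-fold. Cebpa was at 0.32 (0.01 to 0.64) and, on halved counts, -0.13 to 0.77. Cebpb (-0.08, -0.19 to 0.04) and Cebpg (-0.07, -0.15 to 0.01) had intervals that included 0. Cebpz was at -0.11 (-0.21 to -0.01). The interval of Cebpb lies inside 1.5-fold in either direction, whereas that of Cebpd does not.

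The OSM and IL-6 libraries were then set against each other, in which 4.24% of 15544 genes were called higher with OSM and 5.42% lower. Cebpd (log2 3.38, 3.10 to 3.67) and Cebpb (1.48, 1.39 to 1.57) were called higher with OSM. Cebpa was at 0.31 (0.04 to 0.58), and on halved counts its interval was -0.08 to 0.69. Cebpg (-0.08) and Cebpz (-0.03) were not called, and the value of Cebpg turned to 0.02 with the running median over length removed. The 3 comparisons share libraries, so they do not support each other.

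The members were set beside other bZIP genes. Of 53 TF_bZIP genes in the table, 45 were compared for OSM against vehicle. Of these 45, 8 (17.8%) were called higher and 2 (4.44%) lower, beside 3.74% and 5.43% of all genes. The 2 lower were Maf and Atf6. Without the C/EBP genes, 6 of 41 were higher (14.6%) and the median log2 fold change was 0.23, against 0.0046 over all genes. These 6 included the AP-1 subunit genes Fos, Fosb, Fosl1 and Junb, named after their values had been seen. No TF_bZIP gene was called for IL-6 against vehicle, beside 1.77% of all genes higher and 1.74% lower. In level, Cebpb ranked 13 of the 53 genes with vehicle and 6 with OSM, and Cebpd 38 and 22.

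Partners and relatives that can pair with C/EBP proteins were listed as 13 genes, of which 11 were compared. None was called higher or lower for OSM against vehicle, beside 3.74% and 5.43% of all genes, at a median of -0.06. With so few genes, a count of 0 says little at these shares. Values ran from -1.36 in Batf2, on 13 and 6 counts, to 0.72 (0.68 to 0.76) in Atf3, on 7565 and 14728 counts with vehicle and OSM. Ddit3, which encodes CHOP, a C/EBP relative that blocks DNA binding of its partners, had 2409, 2526 and 2723 counts and a log2 fold change of -0.06 (-0.14 to 0.01). Atf4, the main factor of the amino acid response, had 21063, 21722 and 33006 counts, or 0.41 (0.38 to 0.43).

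Receptors, kinases, ligases and cofactors that act on C/EBP genes or proteins were 26, all compared. With OSM 2 were higher and 2 lower, or 7.69% each way, beside 3.74% and 5.43% of all genes, and the median was -0.24. Trib1, a pseudokinase that brings C/EBP alpha to the COP1 ubiquitin ligase for degradation, had 143 counts with vehicle, 187 with IL-6 and 1331 with OSM (log2 2.98, 2.73 to 3.24). Osmr, the ligand-specific chain of the OSM receptor, had 1023, 1199 and 2929 counts (1.28, 1.17 to 1.38). In both genes the OSM library was the one apart, as it was for Cebpd and Cebpb. Stat3 had 7953, 8947 and 14412 counts (0.62, 0.58 to 0.66), and Il6st, which encodes gp130, had 17343, 19092 and 13870 (-0.56, -0.60 to -0.53). The coactivator gene Ep300 (-1.39) and the chromatin remodeler gene Smarca2 (-1.25) were lower, which are 14273 and 14269 bases long in the files, and neither was called with the running median over length removed. With an assumed coefficient of variation of 0.2, Trib1 alone of the 4 called genes stayed called. Against IL-6, Trib1 (2.69) and Ep300 (-1.44) had the largest log2 fold changes among the called genes.

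Acute-phase and inflammatory genes with known C/EBP sites were 31, of which 14 were at 0 in all libraries and 11 had enough counts. With OSM 6 of the 11 were higher and 0 lower, beside 3.74% and 5.43% of all genes, and the median log2 fold change was 1.92. Il6 and Hamp reached the minimum of 10 counts only through the OSM library, so this count and median describe the genes that passed and not the list. Serpina3n, a serine protease inhibitor of the acute phase, had 45, 90 and 2059 counts (5.27, 4.85 to 5.73). Ptgs2, which encodes cyclooxygenase-2, had 52, 34 and 798 (3.70, 3.29 to 4.13), and Il6 had 4, 0 and 42 (3.15, 1.69 to 5.09). Lcn2, which encodes the iron-siderophore carrier lipocalin-2, had 95, 82 and 651 counts (2.54, 2.22 to 2.86), and Il1r1, an interleukin-1 receptor gene, had 41, 78 and 184 (1.92, 1.43 to 2.45). All 5 were highest in the OSM library. The sixth, Ccl2, a monocyte chemokine gene, had 14, 29 and 60 counts (1.86, 1.00 to 2.81) and was not called on halved counts. Il1r1 and Ccl2 were not called with an assumed coefficient of variation of 0.2, and only Serpina3n and Ptgs2 were called with 0.4. The macrophage marker Cd68 was also higher in the OSM library (log2 1.65, 1.49 to 1.82). It was the only 1 called of the 4 macrophage markers compared, whose values ran from -0.66 to 1.76. The part of Cd68 in the values of the acute-phase genes was not tested. Against IL-6 5 of the 12 genes compared were higher, beside 4.24% of all genes, led by Ptgs2 (4.41) and Serpina3n (4.37). Il6 and Hamp, at 0 counts with IL-6, passed only through the OSM library, and their values there are bounds. Hamp was not called on halved counts.

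Adipocyte and metabolic genes of the C/EBP program were 21, with 6 at 0 in all libraries and 14 compared. None was higher with OSM and 2 were lower, beside 3.74% and 5.43% of all genes, at a median of -0.25. Ppargc1a, a coactivator gene of mitochondrial biogenesis, had 1035, 937 and 351 counts (-1.80, -1.98 to -1.63). Insr, the insulin receptor gene, had 4074, 4038 and 1954 (-1.30, -1.38 to -1.22) and was not called with the running median over length removed. The same 2 of 14 genes were lower with OSM against IL-6 (-1.56 and -1.19), beside 5.42% of all genes. There too Insr was not called with the running median over length removed. With an assumed coefficient of variation of 0.2, neither gene was called in either comparison. Granulocyte and macrophage genes were 20, with 9 at 0 and 5 compared. None was called higher or lower for OSM against vehicle, beside 3.74% and 5.43% of all genes, at a median of 0.93. Mmp9 (0, 4 and 10 counts), Cd14 (8, 22 and 18) and Cybb (9, 13 and 14) reached the minimum of 10 counts only through the OSM library. The value of Mmp9 is a bound. This median therefore describes the genes that passed and not the list. With OSM against IL-6, 1 of 5 genes compared was higher and 0 lower, beside 4.24% and 5.42% of all genes. It was Lyz2, the lysozyme gene, on 31 and 4 counts (2.81, 1.31 to 4.78). Lyz2 reached the minimum in this pair only through the OSM library. This call was lost on halved counts, with the 99% interval, with the running median over length removed and with a coefficient of variation of 0.4.

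The amino acid response genes shared by ATF4 and C/EBP gamma were 22, all compared, and none was called (median 0.03). The 24 nucleolar and m6A methyltransferase genes set beside Cebpz were all compared and none was called either, at a median of 0.27. Both lists stand beside 3.74% of all genes called higher and 5.43% lower. With IL-6 against vehicle no gene of the 7 lists was called, beside 1.77% of all genes higher and 1.74% lower. The medians of the lists ran from -0.06 to 0.39, beside -0.0019 for all genes.

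**Figure D5:**
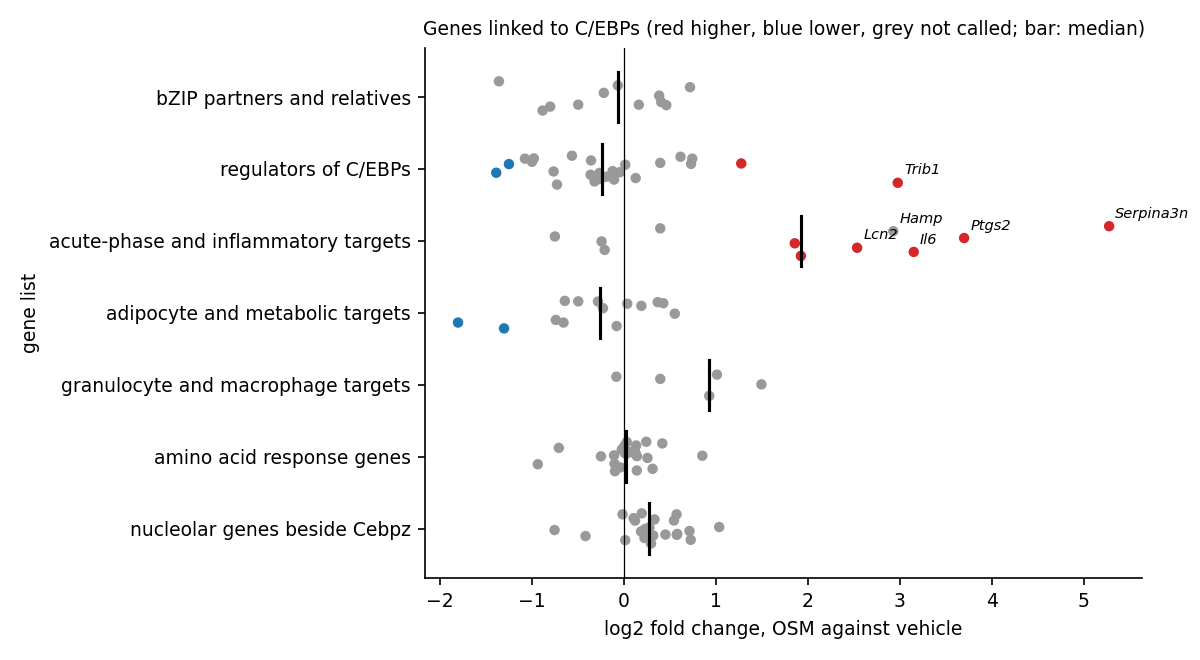
log2 fold change of OSM against vehicle (x axis) for each compared gene of the 7 lists, in red if called higher, blue if called lower and grey if not called, with a bar at the median and vertical jitter for display only. The acute-phase and inflammatory list has its median at 1.92, and the amino acid response list has its median at 0.03.

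Genes whose pattern was most like that of each called member were found by the distance between pairs of log2 fold changes (OSM and IL-6, each against vehicle) over 8985 candidate genes and 3 libraries. For Cebpb they were Midn (2346, 2349 and 7379 counts), Arid5a, Itga7, Gadd45b and Tmem100, at distances of 0.02 to 0.06. For Cebpd they were Adamts4 (6, 10 and 193 counts), Has3, Cpxm1, Mapk11 and Car13, at 0.62 to 0.70. Candidates had at least 1 fpkm with OSM, and few genes have a fold near that of Cebpd, so the 2 sets of distances are not compared.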

How the data were processed

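RNA was isolated with Trizol, pooled within each condition, selected with poly-T beads and sequenced as read pairs. According to the submitters' notes, fastp, HISAT2 2.2.1, featureCounts 2.0.6 and edgeR 4.0.16 were used on mm39, whereas the paper's methods name other versions of featureCounts and edgeR. Whether the counting used strand is not given in the sources used here. The authors deposited whole-number counts per gene, not normalized, and the fpkm made from them. No per-sample column was left unmatched (0).

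From the counts, TMM factors were computed for each pair of libraries with edgeR 4.0.16 in R 4.3.3. Genes with at least 10 counts over a pair were compared. A log2 fold change is the ratio of scaled counts with the 95% Clopper-Pearson interval, and a gene was called when that interval lay beyond 2-fold. Intervals of levels are Poisson, and a count of 0 was limited by a floor of 3 counts. Where even counts reflect read pairs, that floor is too low. No p-value was computed. The rule was tested on simulated OSM and vehicle counts with 200 genes changed 4-fold or 8-fold, of which it called 199, and 0 unchanged genes of 15535 in all. With an assumed coefficient of variation of 0.2 it called 194, and 57 unchanged genes of 15460 in all. The 95% interval then held the true value for 50.3% of unchanged genes. Changed genes were drawn from well-counted genes only, and library sizes were known. The simulation therefore does not cover called genes with few vehicle counts, such as Il6 and Ccl2.

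The 6 members and 7 gene lists were chosen by textbook role with earlier results of these data known. Genes named were the members, Osmr, Il6st, Stat3, Ddit3, Atf4 and Trib1, up to 5 called genes with the largest change in each list (2 in the other comparisons), genes overlapping a member, and 5 nearest in pattern to each called member with at least 1 fpkm with OSM. Outside this rule are the markers, Ccl2, Hamp, Mmp9, Cd14, Cybb, Atf3, Batf2, Maf, Mafa, Atf6, Creb3l4 and the AP-1 genes. The predicted genes that share words with Cebpz are outside it too. For 6 listed symbols the files hold an older name. The symbol Ddit3 is on 2 identifiers, and the longer gene was kept. Of 56748 identifiers, 56017 were in GENCODE M39. Alternatives were DESeq2 1.42.0 size factors, library totals, other minimums, intervals and folds, the running median over length and halved counts.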

Additional observations from a re-analysis of the deposited data

How the results depend on the processing

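With 1 library per condition, none of these values has a replicate check, and there was no replicate to leave out. No paired analysis was possible because each condition has 1 library.

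Cebpd was called higher with OSM against vehicle and against IL-6 under every alternative run. The number of members called for OSM against vehicle was 2 and fell to 1, with Cebpb lost, under an assumed coefficient of variation of 0.2 or 0.4, the 4-fold limit and the removed running median over length. Against IL-6 it fell from 2 to 1 under the first 3 of these. No member was called for IL-6 against vehicle under any alternative. Of 75 alternative log2 fold changes of members, 70 stayed inside the main interval and 5 moved out of it. The largest shift from a main value was 0.36. No called value changed sign. Cebpg for OSM against IL-6, not called, went from -0.08 to 0.02 with the running median removed.

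List genes called for OSM against vehicle were 12, and became 5 and 3 under a coefficient of variation of 0.2 and 0.4, 30 at 1.5-fold and 4 at 4-fold. Against IL-6 they were 12, and became 7, 6, 29 and 5 under the same settings. For IL-6 against vehicle they were 0, with 1 at 1.5-fold and 3 by the point estimate.

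All genes called for OSM against vehicle were 1425, and became 884 with a minimum of 50 counts, 761 and 433 under a coefficient of variation of 0.2 and 0.4, 3207 at 1.5-fold, 256 at 4-fold, 3599 by the point estimate and 831 on halved counts. Against IL-6 they were 1502, and became 865, 837, 421, 3219, 275, 3538 and 820 under these settings. For IL-6 against vehicle they were 543, and became 56 with a minimum of 50 counts, 237 with the 99% interval, 217 under 0.4, 902 at 1.5-fold, 96 at 4-fold, 2058 by the point estimate and 108 on halved counts. Lower limits and wider intervals change these counts by construction. The cause of the change with gene length was not tested.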
